A study of Arabidopsis thaliana with 6 samples.

Results

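The class A1 heat shock factors of Arabidopsis thaliana are the 4 genes HSFA1A (AT4G17750), HSFA1B (AT5G16820), HSFA1D (AT1G32330) and HSFA1E (AT3G02990). They were taken by their locus numbers from the 20310 genes that had a probe set of their own on the array, and all 4 were measured, each by 1 probe set that names no second gene. The gene table used here calls HSFA1A and HSFA1B by the older symbols HSF1 and HSF3. It lists 2 transcripts each for HSFA1B and HSFA1D, which 1 probe set may not tell apart, and 1 each for HSFA1A and HSFA1E.

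Heat shock factors are transcription factors that bind inverted repeats of a short DNA motif, the heat shock element, in front of heat-responsive genes. In unstressed plants the HSFA1 proteins are already made and are kept inactive in complexes with the chaperones HSP70 and HSP90. Heat releases them when unfolded proteins occupy these chaperones, and the freed factors form trimers, enter the nucleus and switch on a second tier of regulators such as HSFA2, together with chaperone genes. Because that activation acts on existing protein, the RNA level of an HSFA1 gene is one of several inputs to HSFA1 activity, and protein was not measured here.

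RNA came from wild-type seedlings of the Col-0 ecotype, 1 array per sample, with 3 control samples and 3 heat samples. All plants grew on Murashige and Skoog solid medium at 23 °C under long days. Control seedlings received no heat, heat seedlings were held at 37 °C for 30 min, and both groups were under light. The labels also give each array an age of its own, from 10 days for control replicate 1 to 15 days for heat replicate 3, while the series text gives a single age, so labelled age and group run together. Nothing states that samples of a group were grown separately, so the p-values measure the spread between these arrays, which may be technical.

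Levels are log2 values after robust multi-array averaging (RMA), which equalises the distribution of probe intensities between arrays, so that a difference of 1 is a doubling and each change is relative to the bulk of transcripts. Array medians lay between 4.39 and 4.53, and single values between 2.53 and 14.2. The tissue check used short marker lists. GAPA-1, a photosynthetic gene of green tissue, was the only gene of 3 listed shoot markers with a probe set of its own. It lay at 13.4 to 13.6 in control and 13.0 to 13.2 in heat samples, a difference of -0.34 that was not called (limma adjusted p = 0.0558). The 3 seed and 3 flower markers lay between 3.03 and 4.26. The seed marker CRU3 held the highest values, 3.92 to 4.00 in control and 4.00 to 4.26 in heat samples. The others lay at 3.65 or lower. The root markers fell in 2 of 3 genes. PYK10, an abundant root glucosidase, fell by 1.45 ± 0.13 (log2, ± SE, limma adjusted p = 0.000589) and TIP2-3 by 0.67 ± 0.09 (adjusted p = 0.00375). The third, COBL9, lay higher in all heat arrays than in all control arrays, by 0.16, and was not called (adjusted p = 0.268). The log2 of their summed linear levels was 11.4 to 11.5 in control and 9.81 to 10.3 in heat samples, a sum made up mostly of PYK10. In whole seedlings, fewer cells of a type and less RNA per cell cannot be told apart, and the part of the root markers' fall in the HSFA1 values was not tested. The number of arrays limits the precision.

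After heat treatment the measured level of 2 of the 4 HSFA1 genes lay near that of the controls, and that of the other 2 was higher. HSFA1D rose 2.35-fold (95% interval 1.89 to 2.93) and HSFA1E 1.73-fold (1.29 to 2.32), while the fold of HSFA1A was 0.988 (0.745 to 1.31) and that of HSFA1B 0.925 (0.749 to 1.14). The files give no detection calls, and the mean control levels of HSFA1A, HSFA1D and HSFA1E, 4.09, 4.11 and 3.74, lay within the range of the seed and flower markers. Of these markers only CRU3 reached such levels. The means of HSFA1A and HSFA1D lay above its control values, 3.92, 3.92 and 4.00. The control levels of these HSFA1 genes were not shown to be above background, so the folds of HSFA1D and HSFA1E may be lower bounds. The mean heat level of HSFA1A, 4.07, also lay within that marker range, so its fold may not show whether the transcript changed. At an adjusted p under 0.05 in limma, with adjustment over all 22746 probe sets tested, 2 HSFA1 genes were called higher and 0 lower. Across the array 7.82% of probe sets were called higher and 11.5% lower, 19.3% in all. With a minimum change of 2-fold as well, 1 of the 4 genes was called, HSFA1D, against 2.8% of probe sets called higher.

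HSFA1D is one of the members that carry most of the heat response together with HSFA1A and HSFA1B. Its level was 4.08, 4.27 and 3.99 in control replicates 1, 2 and 3, and 5.32, 5.15 and 5.57 in heat replicates 1, 2 and 3. All heat arrays lay above all control arrays, with a gap of 0.89 between the highest control and the lowest heat value. The change was 1.24 ± 0.13 on the log2 scale (± SE, n = 3 each; limma adjusted p = 0.00129). A larger rise was measured in 540 of the 22746 probe sets. In the authors' deposited table the linear ratio of control over heat was 0.424, 0.541 and 0.334 for the arrays with replicate number 1, 2 and 3. Adding labelled age to the model gave a change of 1.12 ± 0.30, which was not called (adjusted p = 0.145). With the arrays scaled to Bacillus control RNAs the change was 0.73, still called (adjusted p = 0.00644).

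HSFA1E has been linked with HSFA1D to the induction of HSFA2 under strong light. Its level was 3.72, 3.70 and 3.81 in the control arrays and 4.51, 4.90 and 4.19 in the heat arrays. The groups did not overlap, and the gap between them was 0.38. Non-overlap with heat higher held for 2 of the 4 HSFA1 genes and for 18.8% of all probe sets. The change was 0.79 ± 0.18 (± SE, n = 3 each; limma adjusted p = 0.0232). Control values spanned 0.11 and heat values 0.71, so the error came mainly from the heat samples. The authors' deposited table gives ratios of control over heat of 0.576, 0.434 and 0.769 for the 3 replicate numbers. The call was lost without control replicate 1 (adjusted p = 0.0506), control replicate 2 (0.0757) or heat replicate 1 (0.0785), with changes of 0.78, 0.77 and 0.80. It was also lost after scaling to the Bacillus controls, where the change was 0.29 (adjusted p = 0.27), with the labelled age as a covariate (0.97, adjusted p = 0.298) and without moderation of the variances (adjusted p = 0.106).

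HSFA1A, long known as HSF1, had levels of 4.18, 4.38 and 3.72 in the control arrays and 4.14, 4.01 and 4.07 in the heat arrays. The heat values lay inside the range of the control values. The difference was -0.02 ± 0.17 (limma adjusted p = 0.961), with a 95% interval from -0.42 to 0.39. A rise in measured level of the size seen for HSFA1D lay outside it. Both group means, 4.09 and 4.07, lay within the range of the seed and flower markers. Of these, only CRU3 in heat replicates 1 and 2 reached such levels. The HSFA1A levels were not shown to be above background. The interval thus covers the signal of the probe set, and a change of the transcript below background was not tested. The control arrays spanned 0.67 and the heat arrays 0.13, and control replicate 3 was 0.56 below the mean of the other control arrays. The sign of this small difference was not stable over the alternative settings. Ratios of control over heat in the authors' deposited table were 1.02, 1.29 and 0.784.

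HSFA1B, which acts with HSFA1A in the early induction of heat shock genes, had levels of 5.61, 5.57 and 5.28 in the control arrays and 5.55, 5.24 and 5.34 in the heat arrays. The groups overlapped, and each spanned about the same range, 0.33 in control and 0.31 in heat samples. The difference was -0.11 ± 0.13 (limma adjusted p = 0.599), with a 95% interval from -0.42 to 0.19. After scaling to the Bacillus controls it was -0.62 and was called lower (adjusted p = 0.0236). That scaling shifts all probe sets of an array by the same amount and moved their median change from 0.02 to -0.49. HSFA1B therefore had to lie equally far below the median in both scalings, by 0.13. The authors' deposited table gives ratios of control over heat of 1.05, 1.26 and 0.963.

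**Figure D1:**
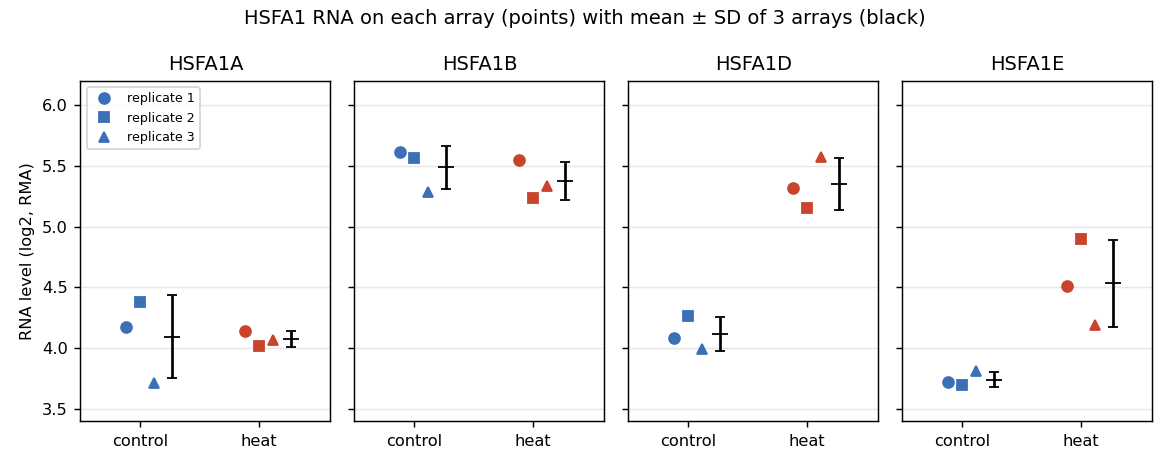
RNA level (log2, RMA) of each HSFA1 gene on each array, with controls in blue, heat samples in red, 1 symbol per replicate number, and the mean ± SD of 3 arrays in black. The heat arrays of HSFA1D (5.15 to 5.57) and HSFA1E (4.19 to 4.90) lie above their control arrays, while those of HSFA1A and HSFA1B overlap with theirs; levels of different genes come from different probe sets and are not to be compared.

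Whether the members differed from each other in their response was tested on the difference between 2 genes within each array, for all 6 pairs. The change of HSFA1D exceeded that of HSFA1A by 1.25 and that of HSFA1B by 1.35 on the log2 scale. The change of HSFA1E exceeded that of HSFA1A by 0.81 and that of HSFA1B by 0.91. In these 4 pairs the within-array differences of the heat arrays did not overlap with those of the control arrays, and each had an exact two-sided permutation p of 0.1, the smallest that 3 against 3 arrays can give, or 0.15 adjusted over the 6 pairs. No pair could therefore pass a threshold of 0.05 by this test. HSFA1D and HSFA1E differed in their change by 0.44 (exact permutation p = 0.3, adjusted 0.36), and the groups overlapped. HSFA1B and HSFA1A differed by -0.10 (exact permutation p = 0.6, adjusted 0.6).

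The within-array difference of the HSFA1D and HSFA1E probe sets was 0.37, 0.57 and 0.18 in the control arrays and 0.81, 0.25 and 1.39 in heat replicates 1, 2 and 3; since the probe sets differ, only its change between arrays can be read. Heat replicate 3 held the highest HSFA1D value and the lowest HSFA1E value of the heat group, and heat replicate 2 the reverse. Without heat replicate 3 the difference of their changes was 0.16, and without heat replicate 2 it was 0.73.

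Profiles nearest to each HSFA1 gene were found among the other 20309 genes by the root mean square difference over the 6 arrays between log2 levels centred on each gene's mean. Since they were picked on these same arrays, their changes are descriptions and no tests. For HSFA1D the nearest was HY5, the bZIP factor that promotes photomorphogenesis, at a distance of 0.080; it differed by 1.20 ± 0.12, with levels of 4.38, 4.34 and 4.30 in control and 5.55, 5.34 and 5.75 in heat arrays. The next was TPR8, a tetratricopeptide repeat gene, at 0.091, which differed by 1.20 ± 0.11. The median distance of all genes from HSFA1D was 0.643. GolS4 (AT1G60470), a galactinol synthase gene, lay nearest to HSFA1E at 0.079 and differed by 0.83 ± 0.17, with AT1G68930 next at 0.109. Within a distance of 0.1 there were 3 genes for HSFA1D and 1 for HSFA1E, against 82 for HSFA1A and 350 for HSFA1B. These counts go with how flat each profile was. The root mean square of the centred profile itself was 0.635 for HSFA1D and 0.448 for HSFA1E, against 0.201 for HSFA1A and 0.149 for HSFA1B. The median distance of all genes was 0.465 from HSFA1E, 0.255 from HSFA1A and 0.222 from HSFA1B. The nearest for HSFA1A were AT2G34357 (0.034) and the allantoate amidohydrolase gene AAH (0.051), and for HSFA1B AT3G01350 (0.030) and AT5G18770 (0.032).

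Other heat shock factor genes supply the second tier of the response. Of 17 listed, 16 had a probe set of their own, since that of HSFB1 names a second gene. Among them 7 were called higher and 3 lower, beside 7.82% and 11.5% of all probe sets, with a median change of 0.03 beside 0.02 for all probe sets; over the HSFA1 genes the median was 0.39. The HSFA1D and HSFA1E changes were small beside the largest ones of the family: the activators HSFA2, HSFA7B and HSFA7A rose by 7.95, 6.92 and 6.60 on the log2 scale and the repressor HSFB2B by 3.76. HSFA2 lay at 3.69, 3.72 and 7.30 in the control arrays and between 12.8 and 12.9 in the heat arrays, and without control replicate 3 its rise was 9.15. HSFA2 and HSFB2B were not called with the labelled age as a covariate, at 5.25 (adjusted p = 0.202) and 2.67 (adjusted p = 0.132). HSFA8, HSFC1 and HSFA4C fell by 2.09, 1.18 and 0.98 (limma adjusted p = 0.0207, 0.0299 and 0.0481), each a call that was lost in at least 5 of 17 alternative settings. With the labelled age as a covariate 2 of the 16 were called higher and 1 lower, and 0 of the 4 HSFA1 genes, beside 1.58% of all probe sets higher and 0.998% lower.

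**Figure D2:**
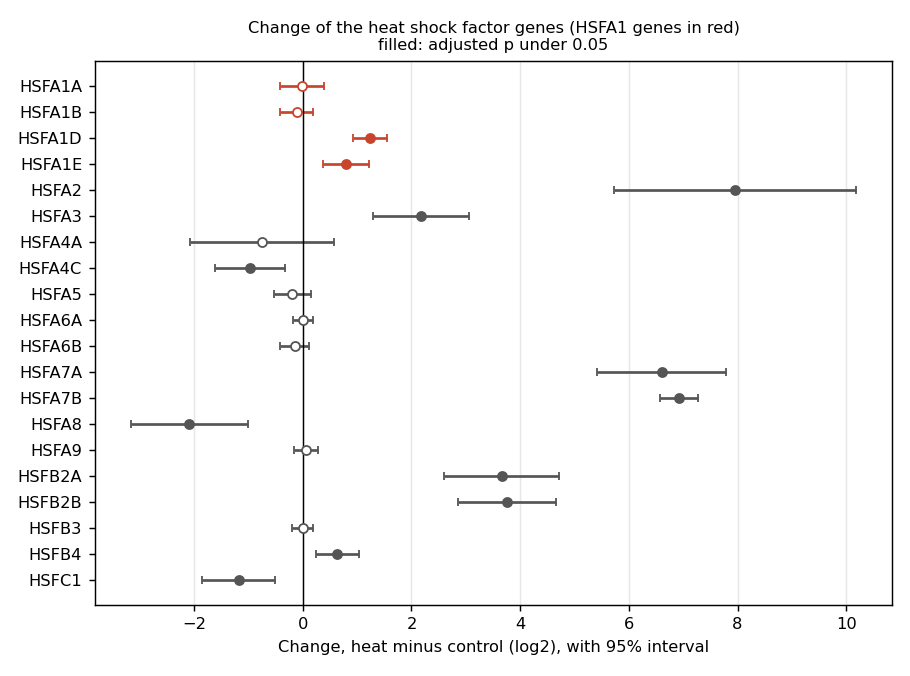
Change of 20 heat shock factor genes (heat minus control, log2, points) with 95% limma intervals, filled where the adjusted p was under 0.05 and red for the HSFA1 genes. HSFA1D (1.24) and HSFA1E (0.79) lie above 0, the intervals of HSFA1A and HSFA1B include 0, and HSFA2, HSFA7A and HSFA7B between 6.60 and 7.95.

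HSP70 and HSP90 chaperones hold HSFA1 proteins inactive, and HSBP binds heat shock factors to end the response. Of 10 such genes listed 7 had a probe set of their own. All 7 were called higher, beside 7.82% of all probe sets, and the median change was 3.83, beside 0.02 for all probe sets. Since the list includes heat-inducible chaperones and was chosen with earlier results known, these counts are descriptions and no tests. HSC70-1, the abundant cytosolic HSP70 of unstressed cells, rose from 12.4 ± 0.09 to 13.3 ± 0.06 (mean ± SD, n = 3), a change of 0.91 ± 0.08 (± SE; limma adjusted p = 0.000638). The other constitutive forms HSC70-2 and HSC70-3 rose by 2.99 and 3.83, and HSP90.2 by 3.46. The heat-inducible members rose further, HSC70-4 by 6.59, HSP90.1 by 7.52 and HSP70B by 9.08. After scaling to the Bacillus controls 6 of the 7 were called higher, beside 2.83% of all probe sets, HSC70-1 being at 0.41 (adjusted p = 0.107). With the labelled age as a covariate 3 of the 7 were called higher, beside 1.58% of all probe sets.

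Partners and modifiers of HSFA1 proteins were described from a list of 9, all measured, of which 4 were called higher and 1 lower, beside 7.82% and 11.5% of all probe sets, with a median change of 0.18. BIN2, the brassinosteroid-signalling kinase that phosphorylates HSFA1D, lay at 7.81, 7.76 and 7.62 in control and 6.31, 6.74 and 6.21 in heat arrays. All its heat values were below all its control values, and it fell by 1.31 ± 0.15 (limma adjusted p = 0.00172). CBK3, a calmodulin-binding kinase that phosphorylates HSFA1A, lay at 5.98, 5.91 and 5.98 in control and 6.40, 6.55 and 6.48 in heat arrays, a rise of 0.52 ± 0.08 (adjusted p = 0.00522). The phosphatase gene PP7 rose by 0.38 ± 0.08 (adjusted p = 0.0177), and TBP2, a TATA-binding protein that places the transcription machinery on promoters, by 0.86 ± 0.11 (adjusted p = 0.00247). SUMO2, a small protein attached to nuclear proteins under stress, rose by 0.33 ± 0.09 (adjusted p = 0.0446), a call lost in 11 of the 17 alternative settings, and that on PP7 was lost in 6.

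The calmodulin gene CAM3, which acts in heat signalling upstream of CBK3, differed by 0.17 (limma adjusted p = 0.671). Its control values were 8.83, 9.03 and 9.73, and without control replicate 3 it was called higher, by 0.43 (adjusted p = 0.0335). TBP1 differed by 0.18, the SUMO ligase gene SIZ1 by -0.33 and the cell-cycle kinase gene CDKA;1 by -0.28, none of them called. For SIZ1 and CDKA;1 all heat arrays lay below all control arrays. SIZ1 was called lower without control replicate 1. It has 2 probe sets, of which the one with the higher mean was used. After scaling to the Bacillus controls the list had 0 genes higher and 3 lower and a median of -0.32, against 42.5% of all probe sets lower and a median of -0.49. The 3 were BIN2, CDKA;1 at -0.79 and SIZ1 at -0.83. CBK3 was then at 0.02, PP7 at -0.12, TBP2 at 0.35, SUMO2 at -0.17 and BIN2 at -1.81 (adjusted p = 2.15e-08). With the labelled age as a covariate 0 were called, BIN2 being at -1.09 (adjusted p = 0.181).

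**Figure D3:**
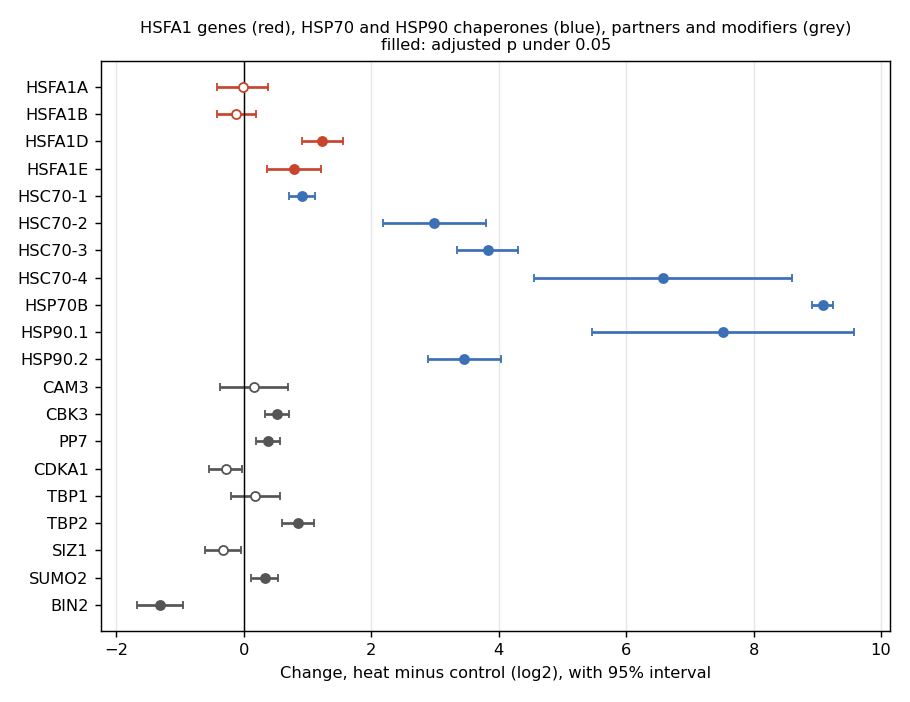
Change (heat minus control, log2) with 95% limma intervals for the HSFA1 genes in red, the HSP70 and HSP90 chaperones in blue and the partners and modifiers in grey, filled where the adjusted p was under 0.05. All 7 chaperone genes lie above 0, from 0.91 to 9.08, and BIN2 lies lowest of the list at -1.31.

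Genes that need HSFA1 factors for their heat induction were listed from general knowledge, with earlier results of these data known. Since they were listed for their heat induction, their counts are descriptions and no tests. Of those measured, 5 are also counted among the other heat shock factor genes and 2 among the chaperone genes. Of 26 listed 24 had a probe set of their own, all 24 were called higher, and the median change was 7.77, with the lowest rise at 3.66; 7.82% of all probe sets were called higher. With labelled age in the model 15 of the 24 were called higher, with a median of 6.09, against 1.58% of all probe sets. In 7 of the 24 the mean control level was no higher than the highest seed or flower marker value, 4.26. That value was of CRU3 in heat replicate 2. The rises of these 7 may be lower bounds, and the order of the largest rises may not hold. HSP17.4-CI and HSP70B, with mean control levels of 4.62 and 4.59, are not among the 7. HSP17.6C-CI and HSP17.6-CII, small heat shock proteins, rose by 9.68 and 9.62. HSP17.4-CI, HSP70B, HSP22.0 and HSP21 rose by 9.25, 9.08, 9.07 and 8.98. The changes of the HSFA1 transcripts themselves ran from -0.11 to 1.24.

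Control replicate 3 lay high for part of this downstream list. In it 12 of the 24 genes were over 2-fold above the mean of control replicates 1 and 2, as were 7 of the 16 other heat shock factor genes, 2 of the 7 chaperone genes and 2.99% of all probe sets. The lists overlap: HSFA2, HSFA7A, HSFB2A and HSFB2B are among both the 12 and the 7, and HSP90.1 among both the 12 and the 2. None of the 4 HSFA1 genes was: in that array HSFA1E was 0.10 above that mean, and HSFA1D, HSFA1B and HSFA1A were 0.18, 0.31 and 0.56 below it. Without control replicate 3 the changes of HSFA1D and HSFA1E were 1.17 and 0.83 (limma adjusted p = 0.00296 and 0.0362). In some of the genes over 2-fold up in control replicate 3, control replicate 2 also lay above control replicate 1. HSFB2A lay at 5.60, 6.53 and 7.54 in control replicates 1, 2 and 3, and HSFA8 at 5.04, 6.21 and 6.94. For HSFA2, control replicates 1 and 2 were close, at 3.69 and 3.72.

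**Figure D4:**
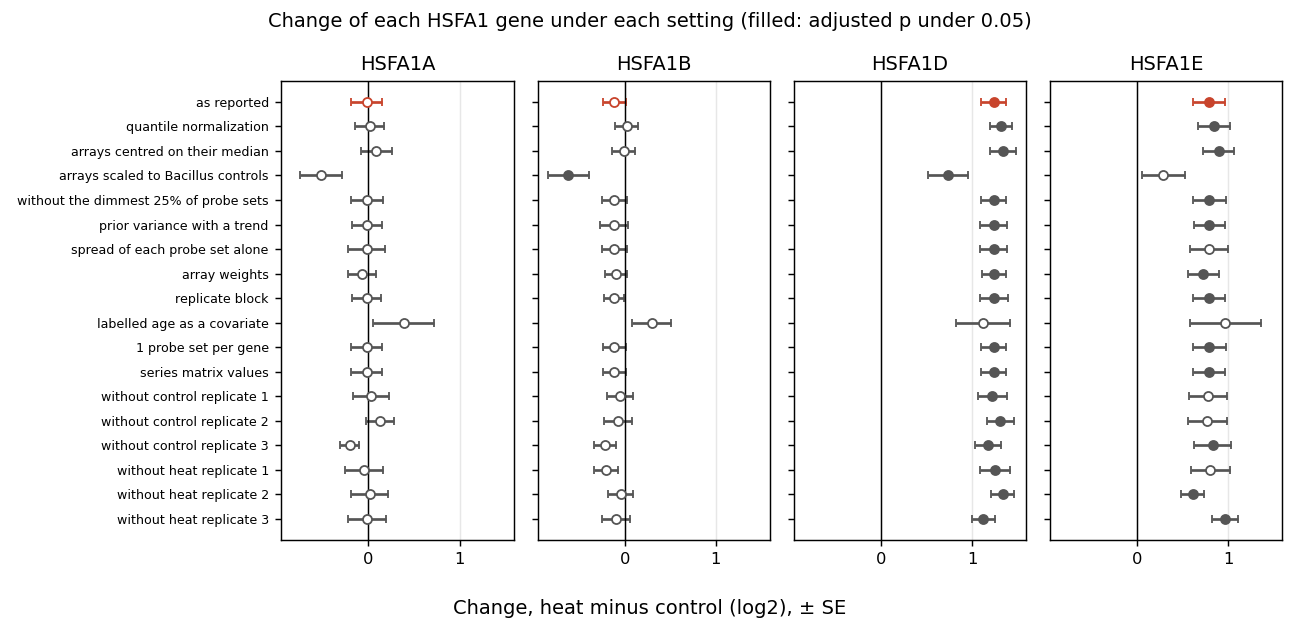
Change of each HSFA1 gene (heat minus control, log2, ± SE) under each of the 18 settings, the reported one in red, filled where the adjusted p was under 0.05. HSFA1D stays between 0.73 and 1.34 and HSFA1E between 0.29 and 0.97, while HSFA1A and HSFA1B lie on both sides of 0.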

How the data were processed

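RNA of 3 control and 3 heat-treated seedling samples was measured on 1 Affymetrix array each. The deposited values are log2 levels per probe set, made with RMA per the submitters' processing notes, which give no version; the release of the array annotation is not given in the sources used here. All 136860 cells of the authors' annotated table and of the value table were equal with no tolerance. The linear ratio of control over heat in the authors' deposited table is 2 to the power of the log2 difference between the arrays of 1 replicate number; its p-value columns hold no values.

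Values were used as deposited. The 64 control probe sets were left out and 22746 probe sets tested in R 4.3.3 by the moderated test of limma 3.58.1 (lmFit, eBayes, group as the factor, 2-sided), and p-values were adjusted over all of them by Benjamini-Hochberg. The residual degrees of freedom were 4 and the prior ones 2.65; the fit was checked on simulated data. Genes were matched through the table's gene number to RefSeq loci of assembly TAIR10.1, with 20540 probe sets matched to 1 locus each, and the probe set with the highest mean stood for a gene. Promoter and protein sequences were not analysed here, and coordinates were used only to order the genes beside the HSFA1 loci.

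The members, lists, thresholds and settings were chosen with earlier results of these data known, and the lists come from general knowledge. Named were the HSFA1 genes, chaperones, partners and modifiers, the 6 dependent genes with the largest changes, up to 4 other heat shock factors per direction among those called, and the 2 nearest profiles for each HSFA1 gene. Of the partners and modifiers, 1 gene of the original list is not reported here and was left out of its counts. Genes next to the HSFA1 loci were added later. Alternatives were quantile normalization, median centring, scaling to the mean of 24 Bacillus control probe sets, a mean-variance trend in the prior, a filter on the 25% of probe sets with the lowest means, no moderation, array weights, a replicate block, labelled age, 1 probe set per gene, the value table, and leaving out each array. The value table equals the annotated one in every cell, so that setting repeats the reported fit by construction. Tables were made in Python 3.11.15 with numpy 2.4.6 and pandas 2.3.3, and figures with matplotlib 3.10.9.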

Additional observations from a re-analysis of the deposited data

How the results depend on the processing

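Of 17 alternative settings, HSFA1D kept its direction and call in 16, HSFA1E its direction in all and its call in 11. The value table is 1 of the 17 and holds the same values, so that setting had to repeat the reported fit. With the labelled age as a covariate HSFA1D was at 1.12 ± 0.30 and HSFA1E at 0.97 ± 0.39 (± SE), neither called. Without it they were at 1.24 ± 0.13 and 0.79 ± 0.18. HSFA1A and HSFA1B turned to 0.39 and 0.29 with the covariate, not called. Labelled age runs together with group, so their parts cannot be told apart. Scaling to the Bacillus controls gave HSFA1E 0.29, not called, and HSFA1B -0.62, called. HSFA1E was not called without moderation of the variances, at 0.79. Quantile normalization turned HSFA1A and HSFA1B to 0.014 and 0.025, and median centring, which moved the median of all probe sets from 0.02 to 0.12, turned HSFA1A to 0.085, none called. Leaving out 1 array in turn gave -0.21 to 0.13 for HSFA1A, which turned to 0.025, 0.13 and 0.013 without control replicate 1, control replicate 2 or heat replicate 2. The same fits gave -0.22 to -0.04 for HSFA1B, 1.12 to 1.33 for HSFA1D and 0.61 to 0.97 for HSFA1E (adjusted p 0.0133 to 0.0785). The cause of these shifts was not tested. Of the HSFA1 genes, 2 were called without and 1 with a fold minimum of 2.

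The counts of all probe sets, 1778 higher and 2614 lower, became 643 and 9667 after scaling to the Bacillus controls, where 41.4 prior degrees of freedom were estimated, 971 and 1178 without moderation, and 359 and 227 with the labelled age. Median centring gave 3054 higher. Leaving out 1 array gave 1035 to 1774 higher and 1473 to 2807 lower, with heat replicates 1 and 3 lowering both counts by over 1.5 times. When 1 array was left out, the differences of changes between HSFA1 pairs kept their direction. That of HSFA1D minus HSFA1E ran from 0.16 to 0.73 (0.44 with all arrays), lowest without heat replicate 3 and highest without heat replicate 2. That of HSFA1B minus HSFA1A ran from -0.20 without control replicate 2 to -0.01 without control replicate 3 (-0.10 with all arrays).

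Same-numbered control and heat arrays share a number, by which the authors' deposited table forms its ratios. Their deviations from the group means correlated at 0.04, 0.19 and -0.08, which cannot settle whether the arrays were paired. With the replicate block HSFA1A, HSFA1B, HSFA1D and HSFA1E were at -0.02, -0.11, 1.24 and 0.79, with HSFA1D and HSFA1E called (limma adjusted p = 0.0111 and 0.0467), with 1529 probe sets higher and 2266 lower. Heat replicates 1 and 2 correlated best with the control array of their own number, and heat replicate 3 with control replicate 1, at 0.16.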

Other observations

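Genes beside the HSFA1 loci were described after the values were seen. Of the 16 protein-coding neighbours, 2 on each side of each HSFA1 gene in the RefSeq order, 13 had a probe set of their own and 1 was called, beside 19.3% of all probe sets called in either direction. That was TPS5, a trehalose-phosphate synthase family gene beside HSFA1A, which rose from 6.68 to 7.29, by 0.61 ± 0.15 (log2, ± SE; limma adjusted p = 0.0376). Beside HSFA1D, the kinase gene MKK10 differed by 0.08 (adjusted p = 0.559), SAMBA by 0.24 and NHL8 by -0.25. Beside HSFA1E, MCC1 differed by -0.08 and AT3G03000 by -0.43 (adjusted p = 0.0851). Over the neighbours that were not called, the differences ran from -0.43 to 0.29.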
